A study of Rattus norvegicus with 6 samples.

Results

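Perilipins and Cide proteins coat the lipid droplets of fat cells, and their transcripts were measured in the fat beside the pancreas of lean and obese rats. The family was taken as 8 genes, Plin1 to Plin5 with Cidea, Cideb and Cidec, and every probe set that the array annotation pairs with exactly 1 of these symbols was used. The rule found 10 probe sets of the 31042 tested, with 2 each for Plin1 and Plin2 and 1 for each of the other 6 genes. All rats were Wistar, an outbred strain. Lean 14, lean 18 and lean 19 ate standard chow, and obese 29, obese 32 and obese 42 were kept on an energy-rich cafeteria diet, given for 30 days. The strain was the same in both groups, so diet is the labelled difference, and rat age is not given in the sources used here. Each rat gave 1 Affymetrix array, and each p-value therefore reflects variation among these animals and their handling.

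A fat cell stores triglyceride in a droplet bounded by a single layer of phospholipid, and perilipins sit on that layer. Plin1 covers the droplet of mature adipocytes, holds lipases away at rest and, once phosphorylated by protein kinase A, releases the cofactor Abhd5 to the lipase Pnpla2. Plin4 marks small nascent droplets in adipocytes, Plin2 and Plin3 occur in most tissues, and Plin5 links droplets to mitochondria in oxidative tissue. The Cide proteins gather at contacts between droplets and pass lipid from the smaller to the larger. Cidec does so in white fat, Cidea in brown fat and, in rodents, also elsewhere, and Cideb mainly in liver.

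Values are log2 expression per probe set, and array medians lay between 5.63 and 5.68. Of 13 listed adipocyte markers, all 13 lay above the upper quartile of probe sets on all 6 arrays, so fat cell transcripts were abundant. These markers cannot show which fat depot was taken. Some arrays stood apart. The mean of 19 pancreatic acinar markers was 8.18 on lean 14 against 4.42 to 4.82 on the other 5 arrays. The log2 signal of 3' control probe sets minus that of 5' ones, a sign of RNA quality, was highest on obese 42. It was 1.28 there against 0.79 to 1.10 elsewhere. Per the labels, the arrays other than obese 42 analyse samples that were deposited before. Some member differences are therefore also given without lean 14, obese 32 or obese 42, while those of the other genes named are not. In whole tissue, fewer cells of a type and less RNA per cell cannot be told apart.

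Of the 10 probe sets, 9 were higher on average in the obese rats, and the exception was Plin3. The median difference was 0.24 on the log2 scale, against 0.020 over all probe sets, of which 54.7% were higher. No member passed limma's test, where a call is a Benjamini-Hochberg adjusted p under 0.05 over all probe sets, and 0.00966% of all probe sets did. With an unadjusted p under 0.05 as the rule, 3 members were higher, Plin4, Cidec and the brighter probe set of Plin1, and 0 were lower, against 6.50% higher and 5.33% lower over all probe sets. At an adjusted p under 0.10 the count of members was also 0, against 0.0193% of all probe sets. Lean and obese values did not overlap for 4 of the 10, those 3 and Cideb, each with the obese rats higher, against 11.8% of all probe sets in that direction, and 7.02% in the other.

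**Figure D1:**
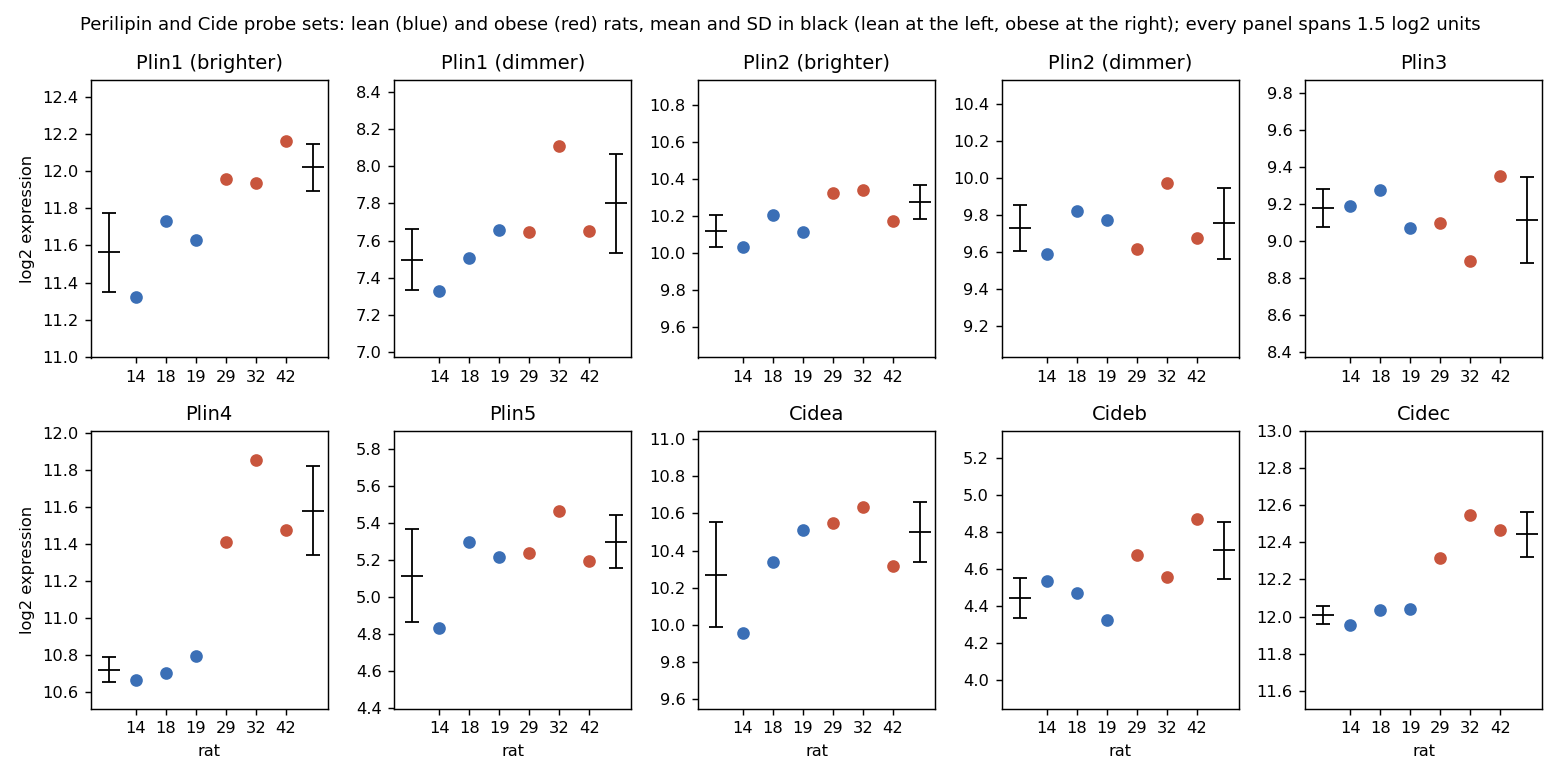
Log2 expression of the 10 probe sets on each array, a point per rat, lean rats in blue and obese rats in red, with the group mean and SD (n = 3) in black at the panel edges and 1.5 log2 units on every y axis. Plin4 and Cidec are separated between groups, while Plin3 and the dimmer Plin2 probe set interleave.

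Plin4 differed most. It read 10.66 on lean 14, 10.70 on lean 18 and 10.80 on lean 19, and 11.41 on obese 29, 11.85 on obese 32 and 11.47 on obese 42. The lowest obese value lay 0.61 above the highest lean value, and the lean rats were within 0.13 of each other while the obese rats spread over 0.44. The means were 10.72 ± 0.068 (SD, n = 3) and 11.58 ± 0.24 (SD, n = 3), a difference of 0.86 (SE 0.13, 95% interval 0.55 to 1.17). As a ratio this is 1.81-fold, with an interval of 1.47 to 2.24. The limma p was 0.000276 before adjustment and 0.152 after, so Plin4 was not called. By the size of its difference Plin4 stood at place 77 from the highest of the 31042 probe sets, and by p at place 55 from the smallest. Without obese 32, the array with the highest value, the difference was 0.72 (limma adjusted p = 0.336), and across 17 alternative settings it ranged from 0.59 to 0.94 with adjusted p between 0.098 and 0.926.

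Cidec, the droplet fusion protein of white fat, read 11.95, 12.04 and 12.04 on lean 14, 18 and 19, and 12.31, 12.55 and 12.47 on obese 29, 32 and 42. The lean rats lay within 0.087 of each other and the obese rats began 0.27 above them. The means were 12.01 ± 0.049 (SD, n = 3) and 12.44 ± 0.12 (SD, n = 3), a difference of 0.44 (SE 0.093, 95% interval 0.22 to 0.65) or 1.35-fold. The limma p was 0.00213 before adjustment and 0.234 after. With any 1 array left out the difference stayed between 0.38 and 0.50.

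Plin1, the main droplet coat of adipocytes, is measured by 2 probe sets. The brighter one read 11.32, 11.73 and 11.63 on lean 14, 18 and 19, and 11.96, 11.94 and 12.17 on obese 29, 32 and 42. The groups were separated by 0.20, and lean 14 was the lowest of all. The difference was 0.46 (SE 0.13, 95% interval 0.15 to 0.76), with a limma p of 0.00931 before adjustment and 0.307 after. Without lean 14 it was 0.34, and once lean 14 and obese 42 were both removed it was 0.27 (limma adjusted p = 0.458). The dimmer probe set read 7.33, 7.51 and 7.66 on the lean and 7.65, 8.11 and 7.65 on the obese arrays, so that lean 19 lay just above obese 29 and obese 42. Its difference was 0.30 (SE 0.15, 95% interval -0.058 to 0.67), and 0.15 without obese 32. The highest obese array thus differed between the probe sets of Plin1, obese 42 on the brighter and obese 32 on the dimmer.

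The stretches before the transcript start of these 3 genes, the members with the smallest p, are shown with that of Plin2, whose difference was small. They are the 250 bases before the first start listed by RefSeq for each gene in the build GRCr8, all on the minus strand: chr9:1025250-1025499 for Plin4, chr4:148137116-148137365 for Cidec, chr1:143086149-143086398 for Plin1 and chr5:106229019-106229268 for Plin2. Capitals mark a match, on either strand, to any of 5 motifs described after the sequences.
Plin4: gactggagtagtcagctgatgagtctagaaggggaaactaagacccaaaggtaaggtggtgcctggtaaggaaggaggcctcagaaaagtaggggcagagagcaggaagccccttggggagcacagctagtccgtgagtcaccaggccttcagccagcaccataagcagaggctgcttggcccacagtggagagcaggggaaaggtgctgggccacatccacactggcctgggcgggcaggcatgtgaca
Cidec: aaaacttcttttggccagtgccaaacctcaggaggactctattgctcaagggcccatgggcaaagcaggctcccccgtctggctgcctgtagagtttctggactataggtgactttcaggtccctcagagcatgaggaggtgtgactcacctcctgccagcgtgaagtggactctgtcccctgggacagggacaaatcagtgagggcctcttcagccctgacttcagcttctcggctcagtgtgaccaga
Plin1: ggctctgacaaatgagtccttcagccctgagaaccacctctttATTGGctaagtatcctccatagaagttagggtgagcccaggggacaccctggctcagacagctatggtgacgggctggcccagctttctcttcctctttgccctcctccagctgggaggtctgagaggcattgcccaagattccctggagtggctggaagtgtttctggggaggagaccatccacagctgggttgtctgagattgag
Plin2: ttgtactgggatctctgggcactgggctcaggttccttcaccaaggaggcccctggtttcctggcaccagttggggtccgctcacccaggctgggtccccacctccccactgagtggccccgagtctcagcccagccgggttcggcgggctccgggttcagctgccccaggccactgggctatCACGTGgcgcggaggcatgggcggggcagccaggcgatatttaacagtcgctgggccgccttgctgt

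The motifs were a spaced repeat of the kind PPAR-gamma binds with its partner RXR, written as AGGNCA, then any 1 base, then AGGNCA again, with N for any base, the shorter nuclear receptor core AGGTCA, the E-box CACGTG, the box CCAAT and the TATA core TATAA. Any match of the spaced repeat with T at both variable places would also hold the core. Over 33469 listed promoter stretches of this length, 0.368% held the spaced repeat, 14.1% the core, 5.59% the E-box, 34.0% the CCAAT box and 24.0% the TATA core. Plin2 held the E-box from base -67 to base -62, counted back from the start, and Plin1 held CCAAT on the opposite strand from -207 to -203. The stretches of Plin4 and Cidec held none of the 5. Among the members whose stretch is not printed, Plin5 held 3 of the motifs. They were the core from -157 to -152, CCAAT on the opposite strand from -62 to -58 and the TATA core from -27 to -23. Plin3 held CCAAT on the opposite strand from -250 to -246 and from -75 to -71, and Cidea and Cideb held no match. A match is a run of letters, not a measured binding site, and a missing match says only that these letters are not in this stretch.

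Plin2 and Plin3, the perilipins of most tissues, had overlapping groups on all 3 of their probe sets. The brighter Plin2 probe set read 10.04, 10.21 and 10.11 on lean 14, 18 and 19 and 10.32, 10.34 and 10.17 on obese 29, 32 and 42, with obese 42 below lean 18. Its difference was 0.16 (SE 0.092, 95% interval -0.056 to 0.38; limma adjusted p = 0.527). The dimmer one read 9.59 to 9.82 in lean rats and 9.62 to 9.97 in obese rats, a difference of 0.026 (SE 0.12, 95% interval -0.26 to 0.31) that lay at -0.044 without lean 14 and at -0.083 without obese 32. Plin3 read 9.19, 9.28 and 9.07 on the lean and 9.10, 8.89 and 9.35 on the obese arrays, so the obese rats held both the highest and the lowest value. Its difference was -0.065 (SE 0.13, 95% interval -0.38 to 0.25; limma adjusted p = 0.864), and 0.047 without obese 32. The upper bounds correspond to 1.30-fold for the brighter Plin2 probe set and 1.19-fold for Plin3.

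Plin5, the perilipin of oxidative tissue, lay below the median of probe sets on all 6 arrays, at 4.83, 5.30 and 5.22 on the lean and 5.24, 5.46 and 5.19 on the obese arrays. The groups overlapped, with a difference of 0.18 (SE 0.14, 95% interval -0.16 to 0.52), and of 0.040 without lean 14. Cideb, the liver member, also lay below the median on all 6 arrays, at 4.54, 4.47 and 4.32 on the lean and 4.68, 4.56 and 4.87 on the obese arrays. Its groups were 0.023 apart, and its difference of 0.26 (SE 0.11, 95% interval -0.0031 to 0.52; limma adjusted p = 0.426) rests on signals near the lower quartile of each array, 4.41 to 4.49. Without obese 42, its highest array, the difference was 0.17.

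Cidea read 9.96, 10.34 and 10.51 on lean 14, 18 and 19 and 10.55, 10.63 and 10.32 on obese 29, 32 and 42, above the upper quartile of probe sets, 7.45 to 7.51, on every array. The groups overlapped, and the difference was 0.23 (SE 0.16, 95% interval -0.15 to 0.61; limma adjusted p = 0.599), or 0.073 without lean 14. Cidea is widely used as a marker of brown and beige fat. The other thermogenic markers were set beside it for that reason. Ucp1, the uncoupling protein that defines brown fat, averaged 4.14 ± 0.14 (SD, n = 3) in lean rats and 4.14 ± 0.17 (SD, n = 3) in obese rats. It lay below the lower quartile on all 6 arrays, as did Cox8b, Elovl3, Dio2, Zic1 and Prdm16. Of 11 thermogenic markers, 6 were higher and 5 lower in the obese rats, with list means of 4.97 to 5.14 and 5.20 to 5.30. By an unadjusted p under 0.05, 3 of the 11 were higher and 0 lower, against 7.20% and 6.13% of all genes. The 3 were Fabp3, a fatty acid binding protein of muscle and brown fat, Cpt1b, the muscle form of the enzyme that passes fatty acids into mitochondria, and Zic1. Fabp3 read 6.44, 6.49 and 6.65 on lean 14, 18 and 19 and 7.79, 8.45 and 7.81 on obese 29, 32 and 42, a difference of 1.49 (SE 0.18; limma adjusted p = 0.146) that was larger than that of Plin4. Cpt1b read 7.02 to 7.39 in lean rats and 7.62 to 7.86 in obese rats, 0.55 higher (SE 0.12; limma adjusted p = 0.244). Both lay above the array median on all 6 arrays, neither was called, and both were named after their values were seen. Cidea was thus bright in fat in which Ucp1 was near the floor of the array, in both diets.

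**Figure D2:**
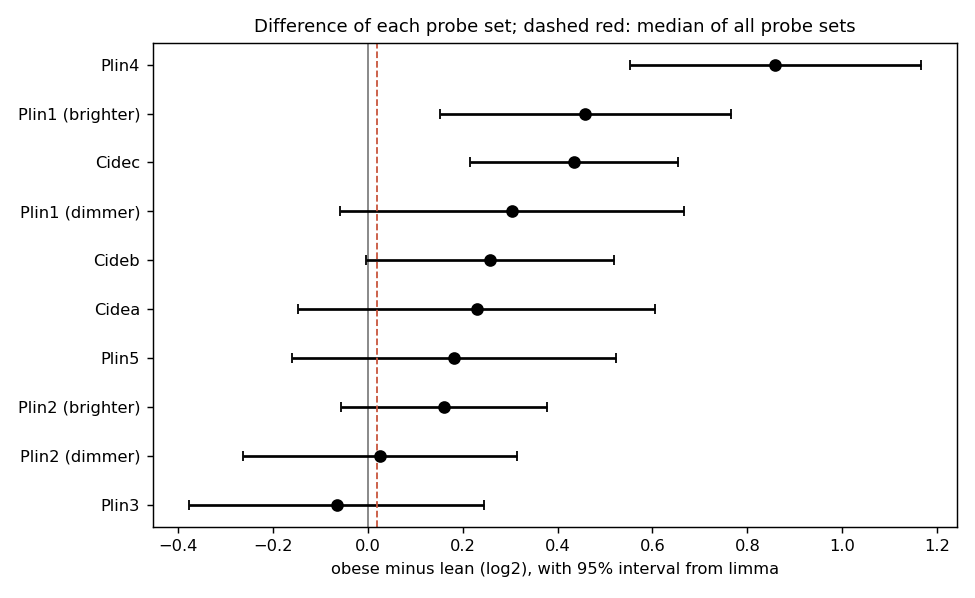
Difference of each probe set, obese minus lean on the log2 scale (x axis), with its 95% interval from limma. The intervals of Plin4 (0.86), the brighter Plin1 probe set (0.46) and Cidec (0.44) lie above 0, and those of the other 7 include it.

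Plin4 was also set against the other members directly. It was picked as the member with the largest difference, so a larger gap in the obese rats follows from that choice and is given as a description, with no test. Within each array Plin4 was set against the only or brighter probe set of each other member, relative to the lean mean of that gap. The gap removes a shift that is equal for both probe sets on an array, but not one that acts on them unequally. Against Plin2 the gap lay at -0.11 to 0.081 in lean rats and 0.49 to 0.91 in obese rats, so the obese mean was larger by 0.70. The gap was larger by 0.92 against Plin3, 0.68 against Plin5, 0.63 against Cidea, 0.60 against Cideb and 0.42 against Cidec, and the groups did not overlap for any of these 6. Against Plin1 it was larger by 0.40, with lean values of -0.19 to 0.18 and obese values of 0.15 to 0.76 that overlapped.

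**Figure D3:**
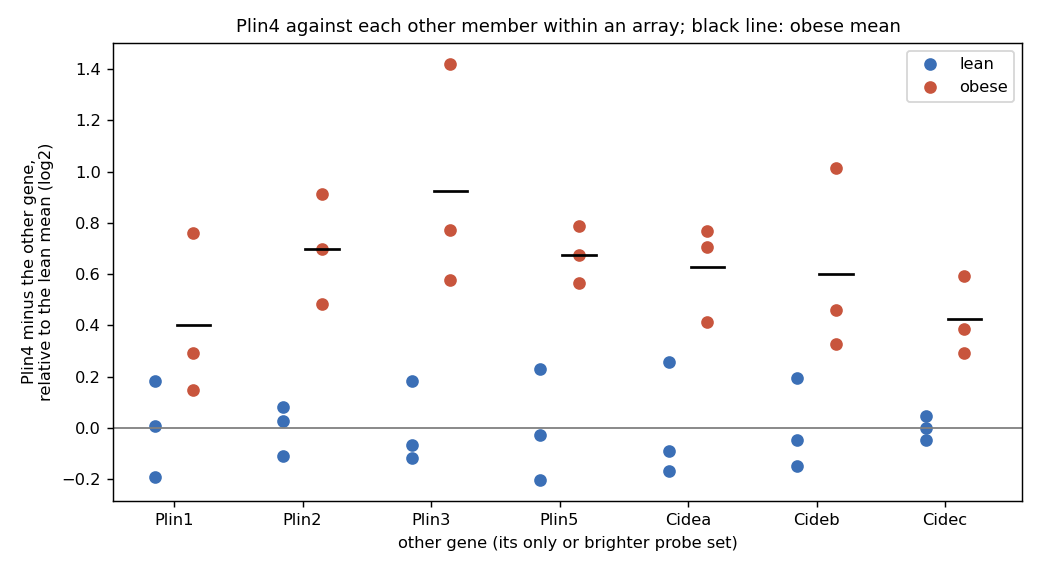
Plin4 minus each other member within an array, relative to the lean mean (y axis, log2), a point per rat with the obese mean as a black line. Obese points lie above lean points for every gene except Plin1, where the ranges overlap.

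The order of the rats was shared across much of the family. Lean 14 was the lowest of all 6 arrays for 8 of the 10 probe sets, all except Plin3 and Cideb. Obese 32 was the highest of all 6 for 7, and obese 42 was the highest for the other 3, which were the brighter Plin1 probe set, Plin3 and Cideb. Lean 14 also carried the acinar transcripts and the lowest mean of adipocyte markers, 11.39 against 11.58 and 11.61 on the other lean arrays. With the acinar list mean as a covariate the difference was 0.84 for Plin4, 0.41 for Cidec, 0.37 for the brighter Plin1 probe set, 0.11 for Cidea, 0.071 for Plin5 and -0.028 for the dimmer Plin2 probe set, with limma adjusted p from 0.393 to 0.967.

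Markers of adipocytes themselves were read beside the family. Of the 13, which include no member, 11 were higher in the obese rats, against 53.7% of all genes, with a median of 0.21, and their mean was 11.39 to 11.61 in lean rats and 11.67 to 11.95 in obese rats. None was called by limma, and 3 were higher at an unadjusted p under 0.05, against 7.20% of all genes. With that mean as a covariate, which leaves 3 residual degrees of freedom, the difference was 0.59 for Plin4, 0.39 for the brighter Plin1 probe set and 0.32 for Cidec (limma adjusted p = 0.926 for each). Because that mean itself does not overlap between the groups, the fit cannot tell its part from that of diet. The same fit gave -0.10 for Cidea, -0.13 for Plin5, -0.24 for the dimmer Plin2 probe set and 0.15 for Plin3, and 6 of the 10 probe sets had a positive difference. Macrophages also make Plin2. Of 17 macrophage markers 16 were lower in the obese rats, with list means of 9.14 to 9.63 in lean rats and 8.32 to 9.34 in obese rats. Of 10 T and B cell markers 9 were lower, with a median of -0.63 and list means of 5.66 to 6.21 in lean rats and 5.01 to 5.80 in obese rats. All 8 endothelial markers were lower, with a median of -0.16, and 7 of 9 smooth muscle and pericyte markers, with a median of -0.89. At an unadjusted p under 0.05 there were 5 lower macrophage, 5 lower T and B cell, 2 lower smooth muscle and pericyte and 0 lower endothelial markers, against 6.13% of all genes, and limma called none. The part of these cell types in the members' values was not tested.

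**Figure D4:**
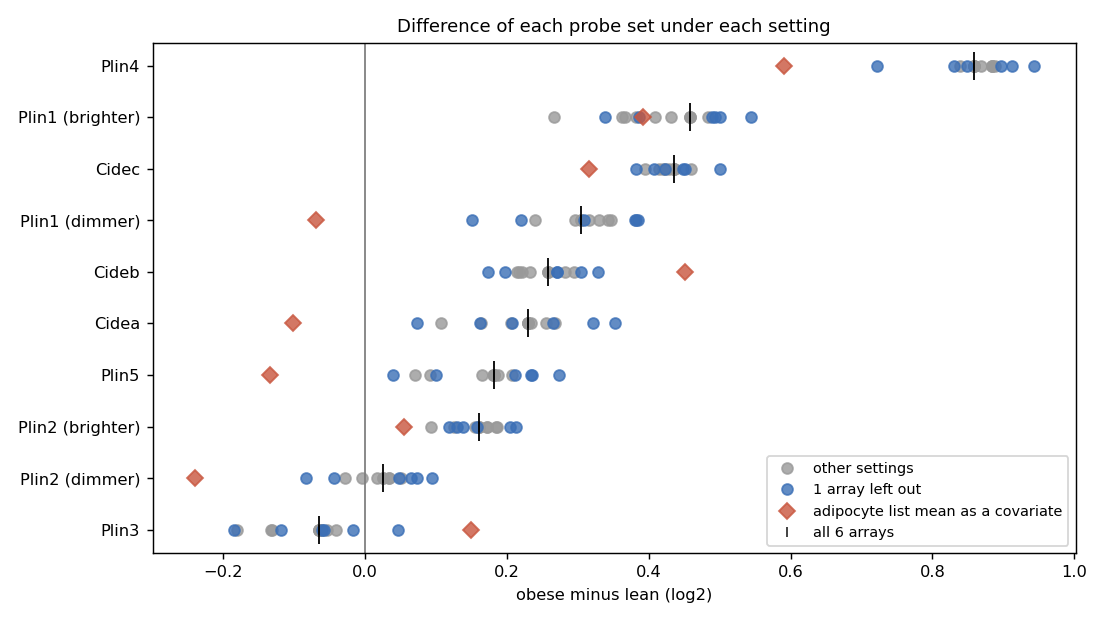
Difference of each probe set, obese minus lean on the log2 scale (x axis), under every setting: all 6 arrays (black bar), 1 array left out (blue), the adipocyte list mean as a covariate (red diamond) and other settings (grey). Plin4 stays between 0.59 and 0.94, whereas Cidea, Plin5, Plin3, the dimmer Plin1 and the dimmer Plin2 probe sets cross 0 in at least 1 setting.

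Other genes of lipid droplet biology were taken from 4 lists, with 64 genes measured and each gene read from its brightest probe set. The lists were chosen with earlier results of these data known, so the counts that follow are descriptions. No gene was called by limma, against 0.00703% of 14217 genes, and at an adjusted p under 0.10 the count was also 0, against 0.0141%. Of the 64, 46 were higher and 18 lower in the obese rats, where 53.7% of all genes were higher. By the unadjusted p under 0.05, 18 lay higher and 2 lower, against 7.20% and 6.13% of all genes. The groups did not overlap for 23 higher and 3 lower genes, against 12.2% and 8.18%. None of the 64 had a larger positive difference than Plin4. Some of them, such as Lipe, Fabp4, Pparg and Adrb3, also stand among the adipocyte markers.

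All 12 genes of the lipases and their droplet partners were higher in the obese rats, against 53.7% of all genes, with a median of 0.38. Lean and obese values did not overlap for 6 of the 12, against 12.2% of all genes in that direction. Lipe, Fabp4 and Adrb3 of this list are also adipocyte markers. The list includes the proteins that perilipins hold or release. Prkar2b, the regulatory subunit of the protein kinase A that phosphorylates Plin1, was higher by 0.51 (SE 0.10). Mgll, which splits monoglycerides, was higher by 0.75 (SE 0.15). Hilpda, a droplet protein that restrains Pnpla2, read 8.83 to 9.56 in lean rats and 9.75 to 10.03 in obese rats, 0.72 higher (SE 0.19). Abhd5, the cofactor that Plin1 releases, was higher by 0.58 (SE 0.17). None of these 4 was called, with limma adjusted p between 0.207 and 0.328.

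Of 16 genes of droplet formation and growth, 10 were higher and 6 lower, with a median of 0.18. Fitm2, which helps droplets bud from the endoplasmic reticulum, read 9.05 to 9.43 in lean rats and 9.52 to 10.36 in obese rats, 0.67 higher (SE 0.21). Lpin1, which makes diglyceride, and Dgat2, which makes triglyceride from it, were higher by 0.40 and 0.36. Vps13c, a lipid transfer protein, lay at -0.37 (SE 0.14). Seipin (Bscl2), which shapes the neck between the endoplasmic reticulum and a nascent droplet and was named after its values were seen, read 8.51 to 8.60 in lean rats and 8.24 to 8.44 in obese rats, a difference of -0.22 (SE 0.089). Genes of this list thus lay on both sides, with limma adjusted p between 0.331 and 0.414 for these 5.

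Of 21 measured genes for other droplet-associated proteins, 14 were higher and 7 lower, with a median of 0.13. Acsl1, which activates fatty acids, was higher by 0.47 (SE 0.083), and Trarg1, which marks vesicles of the glucose transporter, by 0.40 (SE 0.10). Cav2, a caveolin, was higher by 0.38 and Aifm2, an oxidoreductase found on droplets, by 0.42, and none of the 4 was called (limma adjusted p from 0.183 to 0.356). Of 15 transcriptional regulators of the family, 10 were higher and 5 lower, with a median of 0.17. Esrra, the estrogen-related receptor alpha, was higher by 0.38 (SE 0.11). Its coactivator Ppargc1b read 5.89 to 6.04 on the lean arrays and 6.29, 6.32 and 7.04 on obese 29, 32 and 42, 0.59 higher (SE 0.20). Cebpb and Cebpa, regulators of adipocyte differentiation, were higher by 0.32 and 0.28 (limma adjusted p from 0.303 to 0.450 for these 4). Pparg, the nuclear receptor known to drive Plin1, Plin4 and Cidec, read 9.60 to 9.85 in lean rats and 9.70 to 10.02 in obese rats with overlap, 0.22 higher (SE 0.12), and is given for that role, outside the rule for named genes.

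**Figure D5:**
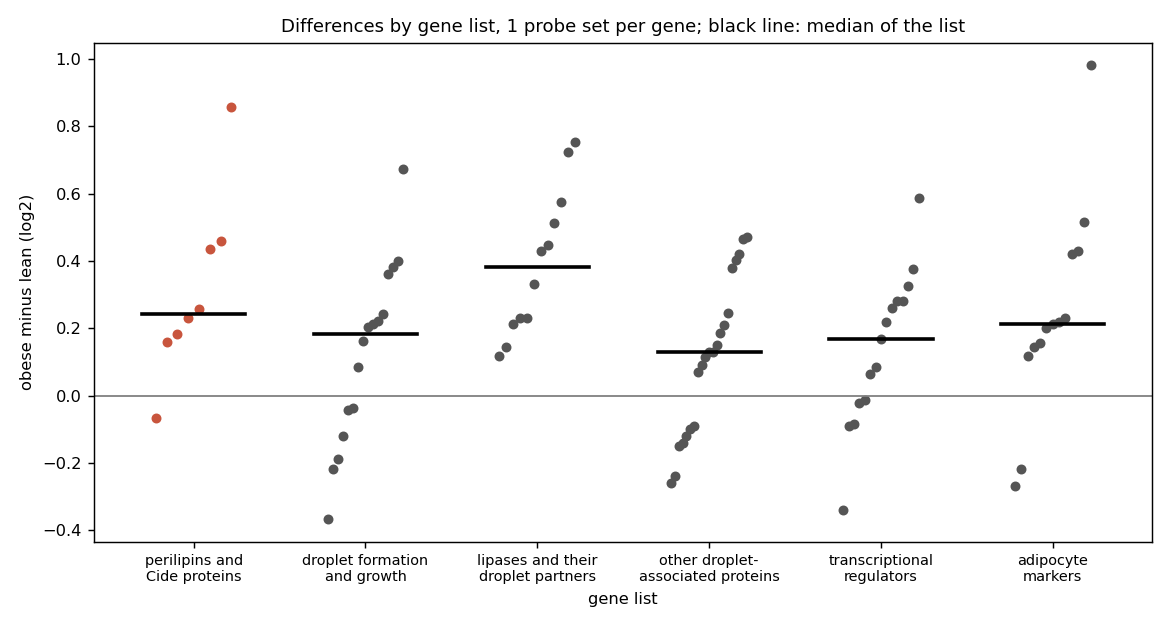
Difference of each gene, obese minus lean on the log2 scale (y axis), by list, with 1 probe set per gene and the list median as a black line. The medians are 0.24 for the 8 members, 0.18, 0.38, 0.13 and 0.17 for the 4 droplet lists in order and 0.21 for the adipocyte markers.

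Plin3, Plin4 and Plin5 lie on the same chromosome, 9, and Plin4 and Plin5 are next to each other in the RefSeq gene order. The protein-coding gene on the other side of Plin4 is Hdgfl2, and 7 such genes lie between Plin5 and Plin3. The difference was -0.16 (SE 0.10) for Hdgfl2, 0.86 for Plin4 and 0.18 for Plin5. The 7 genes from Lrg1 to Ticam1 lay between -0.31 and 0.18, and Plin3 at -0.065. None of these genes passed limma's test, and Plin4 alone among them had groups more than 0.5 apart in mean.

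The genes whose pattern over the 6 arrays was closest to that of a member were found by the root mean square distance between profiles, each centred on its own mean, among 14209 other genes. For Plin4 the closest were RGD1359108 (distance 0.086, difference 0.75), Nkain1 (0.096, difference 0.82) and P2rx5 (0.103, difference 0.74). P2rx5 is a purine receptor. It read 6.24 to 6.38 in lean rats and 6.93 to 7.29 in obese rats. For the brighter probe set of Plin1 the closest were Zfp91 (0.041, difference 0.51), Slc25a15 (0.043, difference 0.38) and Vat1 (0.050, difference 0.40). These distances describe 6 arrays and were picked as the smallest of many.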

How the data were processed

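Per the submitters' processing notes, the authors made the deposited log2 values, 1 per probe set and array, with RMA from the affy package. The sources used here do not give versions, the chip definition or the set of arrays that RMA scaled jointly. Of 31099 probe sets, 57 controls were set aside. The platform annotation listed a single symbol for 20826 of the rest, more than 1 for 436 and no symbol for 9780. All 8 members carried the same symbol in the RefSeq gene table through the gene ID.

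All 31042 probe sets entered a two-sided limma test of obese against lean (limma 3.58.1, R 4.3.3, lmFit then eBayes with a constant prior), without covariates or a filter on dim signals, adjusted by Benjamini-Hochberg. The 3 arrays per group limit the precision. The fit was also run on simulated data, with changes larger than the difference of any member. That run does not show how well differences of the members' size are found. Tables and plots used Python 3.11.15, pandas 2.3.3 and matplotlib 3.10.9.

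Members and lists were chosen with earlier results of these data known, and the motifs with the promoter stretches in view. Every member probe set is named, with up to 4 genes per droplet list, those with the smallest p. Alternatives were scaling, filter, probe set rule, prior, weights, arrays left out and covariates.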

Additional observations from a re-analysis of the deposited data

How the results depend on the processing

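No member probe set and none of the 64 droplet genes had a limma adjusted p under 0.05 in any of the alternative fits, nor under 0.10 in the fit reported. Under 0.10, Plin4 passed with array weights (0.098) and without obese 42 (0.099). At an unadjusted p under 0.05 there were 3 members, all higher, against 6.50% higher and 5.33% lower over all probe sets. By the same rule there were 20 droplet genes, 18 higher and 2 lower, against 7.20% and 6.13% of all genes. The count of members on the higher side was 9 of 10, with a range of 8 to 9 when 1 array was left out, and 6 with the adipocyte list mean as a covariate. Plin4, Cidec, Cideb and the brighter probe sets of Plin1 and Plin2 kept their direction in every setting in which they were tested. The dimmer Plin2 probe set changed sign without lean 14 (-0.044), without obese 32 (-0.083), with lean 14 and obese 42 left out (-0.0045) and with the acinar list mean as a covariate (-0.028). Plin3 did so without obese 32 (0.047). The acinar list mean was 8.18 on lean 14 and 4.42 to 4.82 on the other arrays. That covariate therefore acts much as leaving out lean 14 does, and the settings are not independent. With 1 array left out, the dimmer Plin2 probe set ranged from -0.083 to 0.095 and Plin3 from -0.18 to 0.047. With the adipocyte list mean as a covariate the dimmer Plin1 probe set lay at -0.069, the dimmer Plin2 probe set at -0.24, Plin3 at 0.15, Plin5 at -0.13 and Cidea at -0.10. The cause was not tested. Median centring and quantile normalization changed no direction. No paired analysis was possible because the groups share no replicate number. Plin5 and Cideb were not tested among probe sets above the median level.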

Other observations

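Among the macrophage markers, Trem2, a lipid-sensing receptor of macrophages that take up fat, was the 1 of 17 that was higher in the obese rats. It read 5.53 to 5.76 on the lean arrays and 6.38, 5.93 and 5.64 on obese 29, 32 and 42, a difference of 0.35 (SE 0.18, limma adjusted p = 0.496), with overlap between the groups. Cd68, a general macrophage marker, read 8.54 to 9.41 on the lean and 8.83, 8.51 and 7.35 on obese 29, 32 and 42, a difference of -0.89 (SE 0.41, limma adjusted p = 0.446). Both were named after their values were seen. Neither passed the test.

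Leptin (Lep), the adipokine that tracks fat mass, departed on obese 42 from some of the members but not from others. It read 8.72 to 9.23 in lean rats and 10.42 and 10.75 on obese 29 and obese 32, above all 3 lean rats. The difference over all arrays was 0.98 (SE 0.47, limma adjusted p = 0.462), with overlap between the groups. Obese 42 had a Lep value of 8.80, below lean 14 and lean 18 at 9.23 and 9.07. Its Plin4, Cidec, Plin3, Cideb and brighter Plin1 values lay above all 3 lean rats. Its Cidea (10.32), Plin5 (5.19) and dimmer Plin2 (9.68) values lay below lean 18 and lean 19. The brighter Plin2 value lay below lean 18, and the dimmer Plin1 value just below lean 19. Lep was named after its values were seen.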
